A study of Oncorhynchus mykiss with 72 samples.

Results

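In gills of redband trout (Oncorhynchus mykiss), 216 transcript features stood above both parental strains in an F1 cross at 15 °C. They were chosen from 16763 features that occurred in all 3 deposited tables with an overall mean of at least 5. For each feature and strain, log2(value + 0.5) was taken as the median of the 3 libraries of a day at 15 °C, averaged over 4 days and centred on the median of all these features. A feature was kept where the F1 cross exceeded each parental strain by at least 0.8 on that log2 scale. The values at 15 °C that chose the members are therefore given as a description, with no test. The tests below use libraries at 28 °C. These entered the choice through the overall mean of at least 5, which ran over all 72 libraries, and not through the differences between strains.

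The groups were gills of the Little Jacks x Keithly F1 cross, of the Little Jacks Creek strain and of the Keithly Creek strain, each at 28 °C and at 15 °C and each on days 1, 3, 7 and 28. Per the series title, the strains stand for desert and montane populations of redband trout, an inland form of rainbow trout. Each of the 24 groups held 3 libraries, 72 in all, and a library was RNA pooled from 3 fish of 1 rearing tank, so p-values measure the spread between such pools. The labels give neither sex nor age of the fish. RNA was depleted of ribosomal RNA before library preparation, per the labels' protocols.

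The gill is the surface through which a fish takes up oxygen, exchanges ions and excretes ammonia, and it meets the surrounding water directly. In a first-generation cross, a transcript near the mean of the parents is called additive. One above or below both parents is called transgressive, a pattern that can depend on the environment in which the cross is raised. The identifiers of the features carry no gene names and none of 25137 matched the table of RefSeq names, so no member could be given a role, a pathway or a sequence, and no marker of a gill cell type could be read.

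Reads recovered from the deposited values ranged from 0.276 to 19.9 M (M, mega) per library, with a median of 6.43 M. Within-group residuals set 7 libraries apart from their group mates, and their numbers below follow the order of columns in the tables. These were the F1 cross at 28 °C on day 28 (replicate 2) and at 15 °C on day 28 (replicate 2), Little Jacks at 28 °C on days 1, 7 and 28 (replicates 1, 3 and 3), and Keithly at 28 °C (replicate 3) and at 15 °C (replicate 2), both on day 28. Leading counts of the comparisons between strains are given with and without them. As a check of the temperature labels, 50 features with the largest 28 °C minus 15 °C difference in Keithly were read in the F1 cross, where their median level on the log2 scale was 5.07 to 9.27 in the 12 libraries at 28 °C and 2.41 to 3.48 in the 12 at 15 °C.

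At 15 °C the members exceeded Little Jacks by 0.80 to 5.86 (log2, median 1.20) and Keithly by 0.80 to 3.65 (median 1.13). Differences of at least 2 were found for 32 members against Little Jacks and for 24 against Keithly, and 21 members had both. The members just inside the threshold had a smaller difference of 0.801 to 0.806, and the features just outside it had 0.795 to 0.798. The threshold cut through a continuous range, with 26 features in the first 0.05 above it and 31 in the first 0.05 below it. The same rule turned round found 78 features lower in the F1 cross than in both parental strains. For the parental strains, it found 17 features raised in Little Jacks above the F1 cross and Keithly, and 6 raised in Keithly above the others. Lower in Little Jacks than in both others were 68 features. Of these, 17 were members, which is 25% of that list and 7.87% of the members. Lower in Keithly than in both others were 10 features, 0 of them members.

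Each day at 15 °C entered the average that chose the members, so a raised F1 level by day follows largely from the rule. Few members passed its threshold on all of the days. On days 1, 3, 7 and 28, the difference was at least 0.8 against both parents for 130, 153, 127 and 123 of the 216 members. Of the 16763 features, 1.72%, 2.14%, 1.39% and 3.56% passed on these days. All 4 days were passed by 34 members, 3 days by 74, 2 days by 71 and 1 day by 33, while 4 members passed on no single day and were kept by their average alone. Median differences from Little Jacks were 1.11, 1.22, 1.48 and 1.06 over the days, and those from Keithly were 1.10, 1.27, 0.97 and 1.46.

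To set levels side by side across the separately normalised tables, recovered reads were joined and scaled with TMM factors to CPM (called scaled CPM below). The median over the 216 members was taken in each library as log2(scaled CPM + 0.5). In the F1 cross it was lowest at 2.85, median 3.03 and highest at 4.25 in the 12 libraries at 28 °C, against 4.39, 4.74 and 5.33 in the 12 at 15 °C. In Little Jacks the lowest, median and highest were 3.32, 4.23 and 4.88 at 28 °C, against 2.99, 3.25 and 4.05 at 15 °C. Keithly had 2.74, 3.24 and 4.43 at 28 °C, against 2.90, 3.32 and 4.33 at 15 °C. All 12 F1 libraries at 15 °C lay above all 24 parental libraries at 15 °C, as the choice of members brings about, and at 28 °C the F1 and Keithly libraries covered nearly the same range, and 4 of the 12 Little Jacks libraries lay above all of them.

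**Figure D1:**
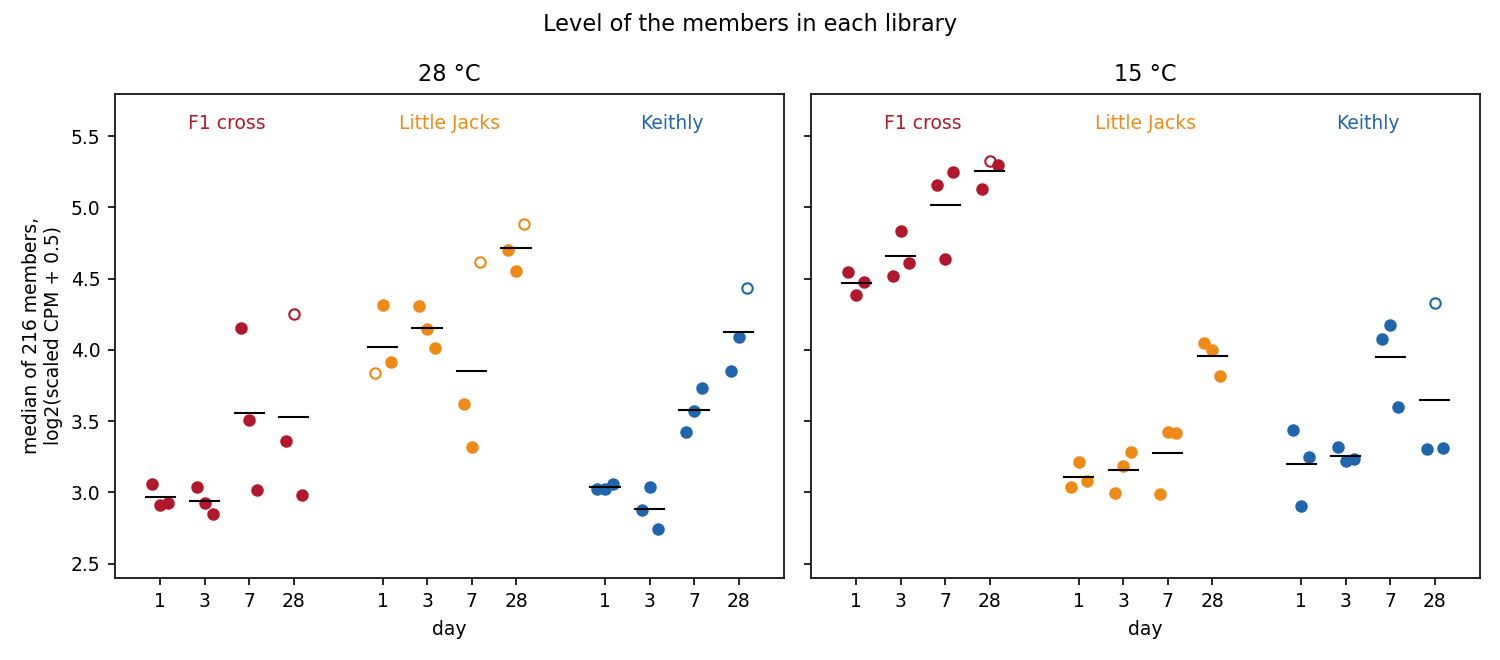
Median level of the 216 members in each of 72 libraries, as log2(scaled CPM + 0.5), by strain and day at 28 °C (left) and 15 °C (right). Points are libraries, short lines are means of 3, and open points are the 7 libraries set apart. F1 libraries lay at 2.85 to 4.25 at 28 °C and at 4.39 to 5.33 at 15 °C.

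The members' share of all reads was 1.23% ± 0.41 in the F1 cross at 28 °C, against 3.32% ± 0.75 in the F1 cross at 15 °C (SD, n = 12 each). It was 2.00% ± 0.80 in Little Jacks at 28 °C, against 1.48% ± 0.33 in Little Jacks at 15 °C. Keithly had 1.20% ± 0.44 at 28 °C, against 1.51% ± 0.32 at 15 °C. At 28 °C the shares of the F1 cross and Keithly were about equal, while the median level over members was 3.03 for the F1 cross and 3.24 for Keithly. The shares rest on few members, since the 10 with the most reads held 63.7% of all member reads and the largest held 16.6%. In bulk gill RNA, fewer cells of a type and less RNA per cell cannot be told apart.

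At 28 °C no member passed the test as higher in the F1 cross than in both parents, and 0% of all features did. Many members were lower in the F1 cross than in Little Jacks at that temperature. The test was limma with Benjamini-Hochberg adjustment over all 23234 features, on the 36 libraries at 28 °C, averaged over days. The 23234 features include those with an overall mean under 5, which could not become members. Against Little Jacks, 0 members were higher in the F1 cross (0.142% of all features were) and 56 were lower, or 25.9% of members, where 0.43% of all features were lower. The difference from Little Jacks was below 0 for 212 of 216 members, compared with 50.0% of all features, and its median was −0.78 (log2), compared with 0.00 over all features. Among the 56, differences ran from −2.79 to −0.59 with a median of −1.15. At an unadjusted p under 0.05, 0 members were higher and 143 were lower, where 5.65% and 5.46% of all features were. edgeR's quasi-likelihood test called 0 members higher and 65 lower, and limma-voom called 0 and 84. Over all features, limma-voom called 54 higher and 189 lower, and the counts for edgeR's quasi-likelihood test are not given.

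Seen from the other side, 100 features were called lower in the F1 cross than in Little Jacks at 28 °C, and 56 of them were members. Without the 7 libraries set apart, 91 members were lower (1.18% of all features were) and 0 were higher, with a median difference of −0.76. Scaling to the column total in place of TMM gave 26 members among 37 features called lower. The median over members was then −0.65, where the median over all features was 0.12. The reads matched to the transcriptome were 30.0% ± 12.2 of quality reads in the F1 cross and 25.8% ± 8.79 in Little Jacks at 28 °C (SD, n = 12 each); the part of this difference in the result was not tested.

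Against Keithly at 28 °C few members passed the test. The F1 cross was higher at 2 members (0.0387% of all features were) and lower at 1 (0.0301%), and the median difference was −0.16 (log2), compared with −0.01 over all features. The difference was below 0 for 148 of 216 members, compared with 51.5% of all features, and at an unadjusted p under 0.05, 17 members were higher and 39 lower, or 7.87% and 18.1%, where 3.31% and 3.32% of all features were. Without the libraries set apart, 3 members were higher (0.142% of all features) and 5 were lower (0.146%). edgeR's quasi-likelihood test called 4 members higher and 1 lower, and limma-voom called 0 and 1. Over all features, limma-voom called 8, of which 2 were higher, and the counts for edgeR's quasi-likelihood test are not given.

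No member was above both parents at 28 °C by limma's test (0% of all features were), and 0 passed in edgeR's quasi-likelihood test, in limma-voom or at an unadjusted p under 0.05 in both comparisons (0.512% of all features did so unadjusted). Below both parents stood 1 member, where 0.0129% of all features were. Without the libraries set apart there were 4 such members, for which the share of all features is not given. Of the remaining members, 55 were lower than Little Jacks with no call against Keithly, 2 were higher than Keithly with no call against Little Jacks, and 158 had neither call. At an unadjusted p under 0.05 in both comparisons, 31 members were below both parents, or 14.4%, where 0.891% of all features were. By day, 5, 6, 1 and 64 members were, where 0.138%, 0.181%, 0.198% and 3.83% of all features were. Applied to the 28 °C libraries as a description, the rule itself found 2 features raised in the F1 cross above both parents. These were 0.0119% of the 16763 features, and 0 of them were members. It found 74 raised in Little Jacks above the F1 cross and Keithly, or 0.441% of the 16763 features. Of these 74, 52 were members, which is 70.3% of that list and 24.1% of the members.

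**Figure D2:**
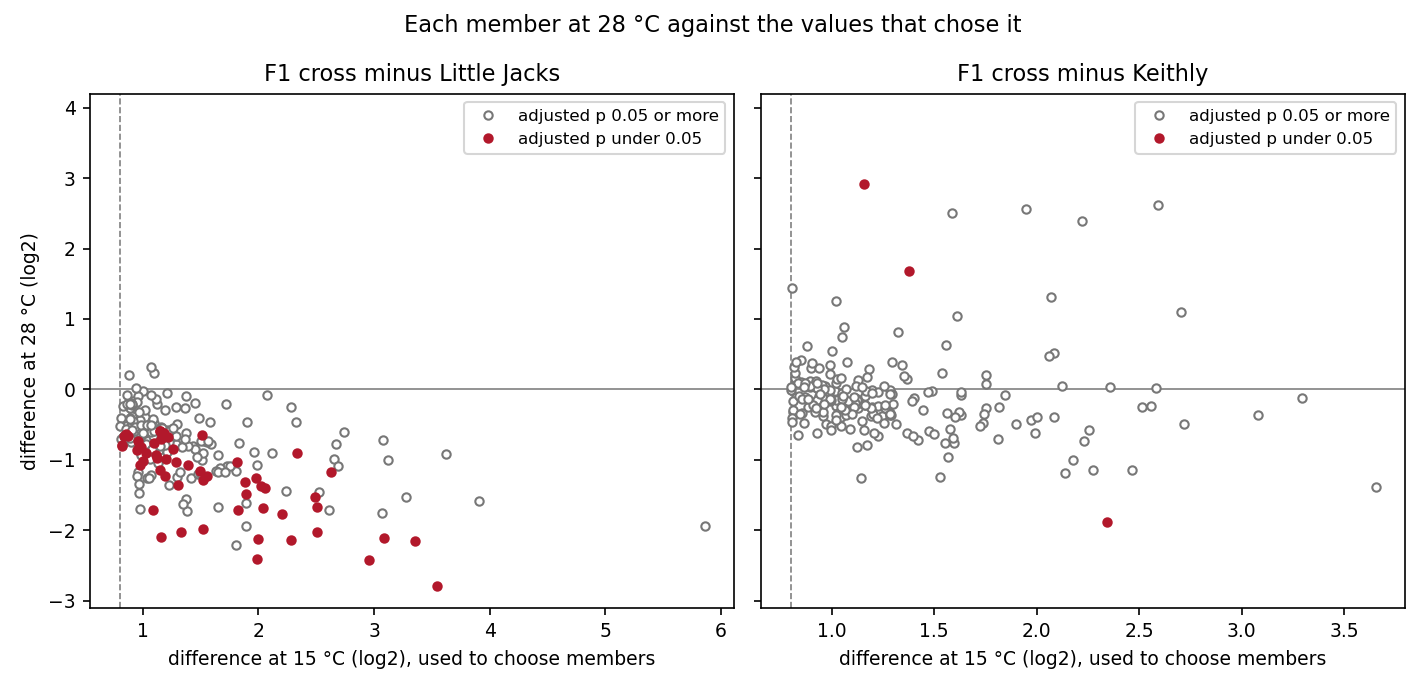
Each of the 216 members as the difference of the F1 cross from Little Jacks (left) or Keithly (right), at 28 °C (vertical, log2, tested) against 15 °C (horizontal, log2, used to choose members). Filled points have an adjusted p under 0.05 at 28 °C and the dashed line marks 0.8. Against Little Jacks 212 points lie below 0, with 56 filled; against Keithly 3 are filled.

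The difference between the parental strains themselves was tested at 28 °C after the other results had been seen. Little Jacks was higher than Keithly at 46 members, or 21.3%, where 0.723% of all features were higher. It was lower at 0 members, where 0.732% of all features were lower, and 2 members were lower at an unadjusted p under 0.05, where 8.15% of all features were; edgeR's quasi-likelihood test and limma-voom each called 0 lower. The difference was above 0 for 199 members and its median was 0.62 (log2), compared with 0.01 over all features. Without the libraries set apart, 63 members were higher in Little Jacks (1.11% of all features) and the median was 0.56. Little Jacks was called above both the F1 cross and Keithly at 44 features, 0.189% of those tested. Of these 44, 27 were members, which is 61.4% of that list and 12.5% of the members. The F1 cross, Little Jacks and Keithly libraries each enter more than 1 of these comparisons.

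**Figure D3:**
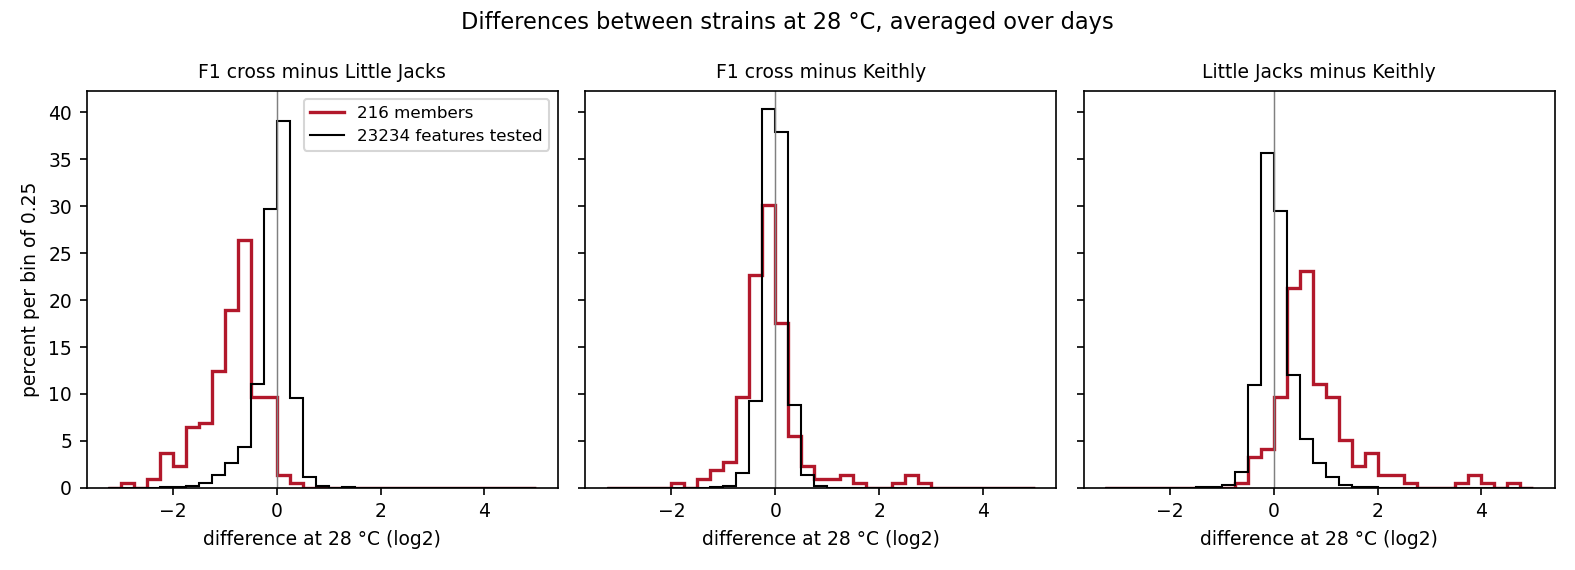
Distribution of the differences at 28 °C, averaged over days, for the 216 members (red) and the 23234 features tested (black), as percent per bin of 0.25 (log2). The members' medians are −0.78 for the F1 cross minus Little Jacks, −0.16 for the F1 cross minus Keithly and 0.62 for Little Jacks minus Keithly.

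By day at 28 °C, the members were furthest below Little Jacks on day 28 and closest to it on day 7. The median difference of the F1 cross from Little Jacks was −0.86 on day 1, −0.89 on day 3, −0.15 on day 7 and −1.06 on day 28 (log2), while the medians over all features were 0.05, 0.00, 0.00 and −0.08. By limma, 3, 5, 0 and 20 members were lower than Little Jacks on these days, where 0.0129%, 0.0258%, 0% and 0.254% of all features were. At an unadjusted p under 0.05, 64, 96, 13 and 114 members were lower, where 2.21%, 1.6%, 1.03% and 8.18% of all features were. edgeR's quasi-likelihood test called 2, 3, 0 and 6 members lower, and limma-voom called 0, 13, 0 and 14. The shares of all features that these tools called by day are not given.

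These daily counts moved with the libraries set apart. Without them, 22 members were lower on day 1, 25 on day 3, 0 on day 7 and 60 on day 28, where 0.228%, 0.142%, 0% and 1.63% of all features were. The median difference on day 7 was then −0.02. On that day the member level in Little Jacks at 28 °C was 3.62, 3.32 and 4.62, the last being the library set apart, and in the F1 cross it was 4.15, 3.51 and 3.02. The libraries of a strain were thus as far apart on day 7 as the strains were on other days. Whether day 7 differed from the other days was not tested.

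Against Keithly the median differences by day were −0.04, −0.04, −0.03 and −0.56 (log2), and limma called 0 members on each day. The share of all features called lower was 0% on days 1, 3 and 7 and 0.0172% on day 28, and the share called higher was 0%, 0%, 0.0043% and 0.00861%. At an unadjusted p under 0.05, 6, 9, 6 and 71 members were lower, where 0.603%, 1.27%, 1.66% and 7.51% of all features were. By the same measure 2, 11, 14 and 2 were higher, where 0.598%, 2.70%, 3.20% and 3.56% of all features were. On day 28, limma-voom called 1 lower and edgeR's quasi-likelihood test 0, with the shares of all features not given. Without the libraries set apart, 26 members were lower than Keithly on day 28, where 1.52% of all features were. On day 3, 1 member was then higher than Keithly, where 0.0043% of all features were. No member was called above both parents on any single day by limma, where 0% of all features were on each day, or by either other tool. At an unadjusted p under 0.05 in both comparisons, 0 members were above both parents on each day, where 0.0775%, 0.108%, 0.207% and 1.06% of all features were. The rule's threshold of 0.8 against both parents was passed by 1, 1, 4 and 10 members on the days at 28 °C. These were 0.463%, 0.463%, 1.85% and 4.63% of members, where 0.149%, 0.221%, 0.298% and 1.38% of the 16763 features passed. A total of 200 members passed the threshold on 0 of the 4 days at 28 °C.

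Within each strain at 28 °C, more members were higher on day 28 than on day 1 than were lower. In the F1 cross, 32 of 214 members tested rose and 11 fell, where 5.47% and 7.77% of all features did, and the median difference was 0.59 (log2). In Little Jacks 36 of 215 rose and 8 fell, where 3.02% and 3.93% of all features did, with a median of 0.65. In Keithly 81 of 215 rose and 8 fell, where 5.45% and 6.59% did, with a median of 0.99. The medians over all features were −0.02, 0.07 and 0.06 in these strains. Leaving out replicate 1 or replicate 2 of Little Jacks on day 28 left 23 members called there in place of 44. Without the libraries set apart, 14 members fell in Little Jacks in place of 8. Whether the change over time differed between strains was not tested.

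The group means of the member level followed that course. In the F1 cross at 28 °C they were 2.97 ± 0.08, 2.94 ± 0.10, 3.56 ± 0.57 and 3.53 ± 0.65 on days 1, 3, 7 and 28 (SD, n = 3 each). In Little Jacks at 28 °C they were 4.02 ± 0.26, 4.16 ± 0.15, 3.85 ± 0.68 and 4.71 ± 0.16, and in Keithly 3.04 ± 0.02, 2.89 ± 0.15, 3.58 ± 0.15 and 4.13 ± 0.29. At 15 °C the F1 cross had 4.47 ± 0.08, 4.66 ± 0.16, 5.02 ± 0.33 and 5.25 ± 0.11. Little Jacks at 15 °C had 3.11 ± 0.09, 3.15 ± 0.15, 3.28 ± 0.25 and 3.96 ± 0.12, and Keithly 3.20 ± 0.27, 3.26 ± 0.06, 3.95 ± 0.31 and 3.65 ± 0.59. The mean was thus higher on day 28 than on day 1 in each strain at 15 °C as well, which was not tested. On days 1 and 3 the F1 and Keithly libraries at 28 °C were close together and below every Little Jacks library. From day 7 the F1 libraries at 28 °C spread widely, and the 3 libraries on day 28 read 3.36, 4.25 and 2.98, the second of them being the library set apart and the first holding 0.455 M reads.

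**Figure D4:**
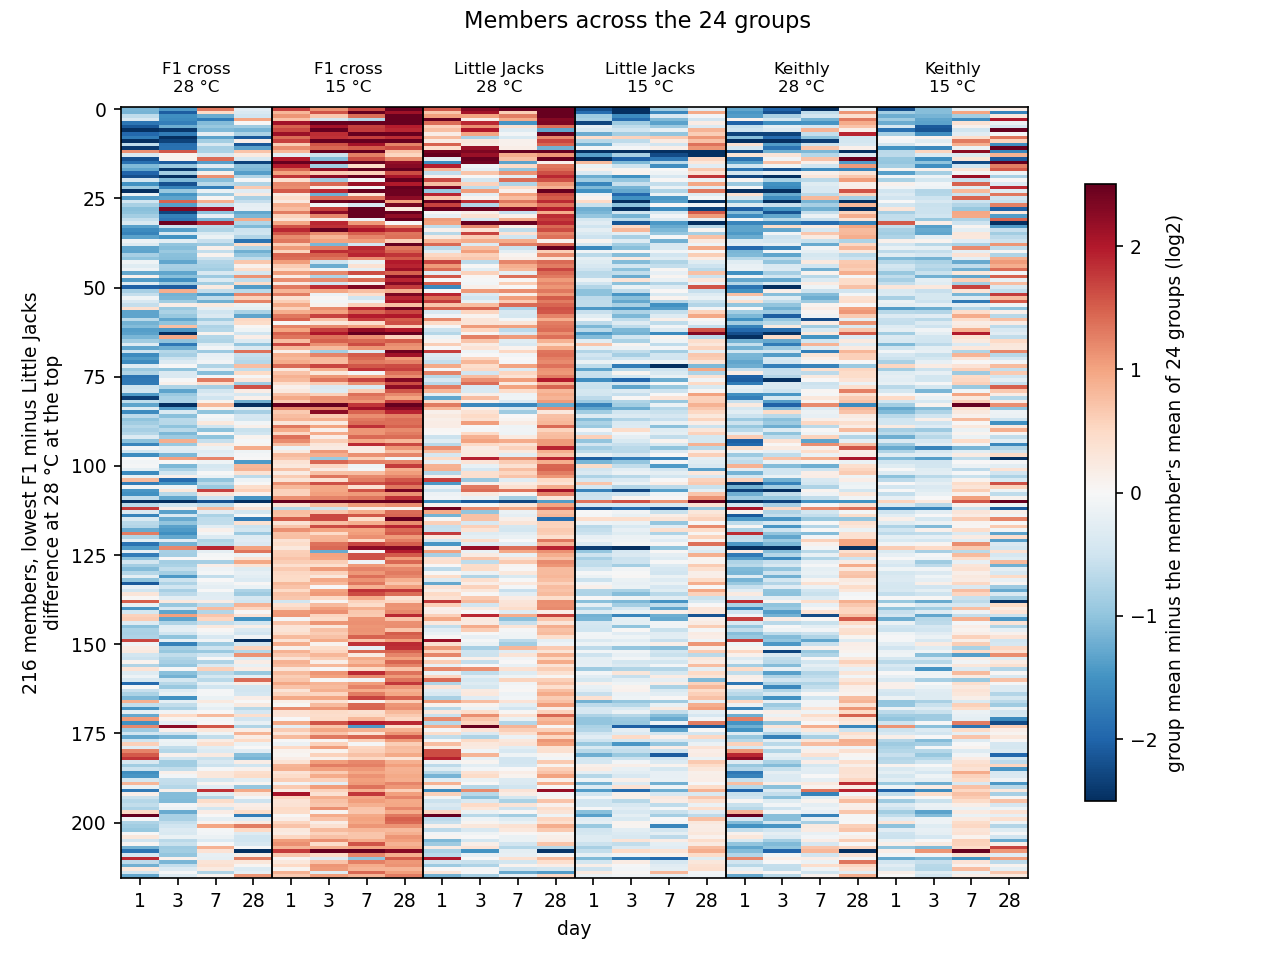
Mean of each of the 216 members in the 24 groups, as the log2 deviation from the member's mean over all groups (red higher, blue lower), with members ordered by the F1 minus Little Jacks difference at 28 °C, lowest at the top. Columns are days 1, 3, 7 and 28 within each strain and temperature; F1 columns are mostly blue at 28 °C and mostly red at 15 °C, and Little Jacks columns have a median above 0 on all days at 28 °C, close to 0 on day 7 (0.03), and below 0 at 15 °C except on day 28 (0.21).

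The difference between temperatures is described here without a test, because high F1 values and low parental values at 15 °C chose the members. In the F1 cross the median of 28 °C minus 15 °C was −1.39 (log2), with 211 of 216 members below 0 and 156 at −1 or less. In Little Jacks the median was 0.63, with 179 members above 0 and 75 at 1 or more. In Keithly it was −0.12, with 91 members above 0. The medians over all features were 0.00, 0.01 and 0.03. For 174 members the difference was above 0 in Little Jacks and below 0 in the F1 cross.

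Single libraries of the temperatures mostly overlapped. For 40 of 216 members, all 12 F1 libraries at 28 °C lay below all 12 at 15 °C, compared with 1.03% of all features. For 7 of 216 members, all 12 Little Jacks libraries at 28 °C lay above all 12 at 15 °C, compared with 1.40% of all features. Both held for 0 members and for 0% of all features. High F1 and low parental values at 15 °C chose the members, so an excess over all features is built in here. By day, the F1 medians were −1.43, −1.49, −1.31 and −1.51, the Little Jacks medians were 0.70, 0.64, 0.46 and 0.61, and the Keithly medians were −0.26, −0.28, −0.38 and 0.39. Members in the F1 cross at 15 °C, where high F1 values chose them, were 0.64 (median, log2) above Little Jacks at 28 °C, and higher for 170 of 216. The F1 cross at 28 °C was near the parents at 15 °C, with medians of −0.23 against Little Jacks and −0.23 against Keithly.

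Nuclear ribosomal RNA (rRNA) features, whose share depends on depletion, took 0.235% ± 0.126 of reads in the F1 cross at 28 °C, against 0.618% ± 0.324 in the F1 cross at 15 °C (SD, n = 12 each). Little Jacks had 0.376% ± 0.355 at 28 °C, against 0.581% ± 0.343 at 15 °C, and Keithly had 0.295% ± 0.113, against 0.472% ± 0.437. Mitochondrial rRNA features took 0.263% ± 0.0536 in the F1 cross at 28 °C, against 0.270% ± 0.0993 at 15 °C. They took 0.213% ± 0.0724 in Little Jacks at 28 °C, against 0.398% ± 0.0646 at 15 °C, and 0.237% ± 0.0488 in Keithly at 28 °C, against 0.331% ± 0.121 at 15 °C. The matched share of quality reads was 30.0% ± 12.2 in the F1 cross at 28 °C, against 17.8% ± 8.45 in the F1 cross at 15 °C. It was 25.8% ± 8.79 in Little Jacks at 28 °C, against 24.1% ± 7.93 at 15 °C, and 26.1% ± 10.9 in Keithly at 28 °C, against 21.0% ± 8.37 at 15 °C. The mean nuclear share was lower and the mean matched share higher at 28 °C in each strain, the matched share differed most in the F1 cross, and the mitochondrial share differed most in Little Jacks; their part in the member levels was not tested.

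A few members show the patterns in single libraries. Of members with a mean of at least 5 at 28 °C, g05733 and g16146 had the lowest F1 differences. The lowest, median and highest scaled CPM of g05733 at 28 °C were 1.79, 13.9 and 153.1 for the F1 cross, 27.5, 105.1 and 329.7 for Little Jacks and 2.20, 5.30 and 35.5 for Keithly. All but a few F1 libraries lay below the lowest Little Jacks library, and the exceptions were 31.8 and 153.1 on day 7 and 110.1 on day 28, the last in a library set apart. The F1 cross minus Little Jacks difference was −2.79 (log2, SE 0.48, adjusted p = 0.00202 by limma) and the Little Jacks minus Keithly difference was 3.89 (adjusted p = 1.96e-05). Against Keithly the F1 difference of 1.10 did not pass (adjusted p = 0.690). At 15 °C, its lowest, median and highest scaled CPM were 5.45, 68.9 and 187.5 for the F1 cross, 1.01, 4.80 and 48.9 for Little Jacks and 2.15, 6.63 and 77.4 for Keithly.

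Member g16146 had 3.83, 15.0 and 76.5 scaled CPM as lowest, median and highest value for the F1 cross at 28 °C, 10.2, 109.0 and 612.7 for Little Jacks and 5.36, 11.4 and 143.9 for Keithly. The F1 libraries covered about the range of Keithly, while 11 of 12 Little Jacks libraries were at 34.8 or above. The F1 cross was lower than Little Jacks by −2.42 (log2, SE 0.39, adjusted p = 0.000865 by limma) and differed from Keithly by 0.01 (adjusted p = 1). Single days that passed were day 3, with −4.11 (adjusted p = 0.0494), and day 28, with −3.65 (adjusted p = 0.0345). On day 28 the libraries read 25.4, 76.5 and 6.99 for the F1 cross, 612.7, 224.7 and 211.5 for Little Jacks and 34.6, 143.9 and 62.6 for Keithly. On day 7 the mean was 54.0 ± 32.6 for the F1 cross (SD, n = 3) and the 3 libraries of Little Jacks ran from 34.8 to 65.3, inside the F1 range. At 15 °C the F1 libraries ran from 40.6 to 295.2, those of Little Jacks from 3.27 to 88.8 and those of Keithly from 5.47 to 82.2.

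The members called higher in the F1 cross than in Keithly at 28 °C were g00350 and g01995, singled out after their values were seen. In g00350 the lowest, median and highest scaled CPM at 28 °C were 9.15, 34.7 and 226.6 for the F1 cross, 16.0, 82.4 and 149.3 for Little Jacks and 1.77, 10.9 and 60.2 for Keithly. F1 and Little Jacks libraries overlapped over most of their range, and most Keithly libraries were lower. The F1 minus Keithly difference was 1.68 (log2, SE 0.31, adjusted p = 0.0320 by limma). It did not pass without any 1 of 10 single libraries, with differences of 1.54 to 1.72 and adjusted p of 0.0535 to 0.0936, nor in limma-voom, with 1.74 (adjusted p = 0.0526).

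In g01995 the lowest, median and highest scaled CPM at 28 °C were 4.58, 31.3 and 166.7 for the F1 cross, 10.2, 48.2 and 149.0 for Little Jacks and 0, 1.81 and 21.8 for Keithly. Of the 12 Keithly libraries, 2 held 3 reads or fewer, both on day 28. The F1 minus Keithly difference was 2.91 (log2, SE 0.47, adjusted p = 0.00865 by limma) and ran from 2.68 to 3.34 with 1 library left out. limma-voom gave a difference of 3.48 that did not pass (adjusted p = 0.0716). At 15 °C this member had 10.8, 59.7 and 111.1 for the F1 cross, 0.506, 4.77 and 21.1 for Little Jacks and 3.13, 21.3 and 80.4 for Keithly; Keithly libraries were mostly lower at 28 °C and Little Jacks libraries mostly higher.

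**Figure D5:**
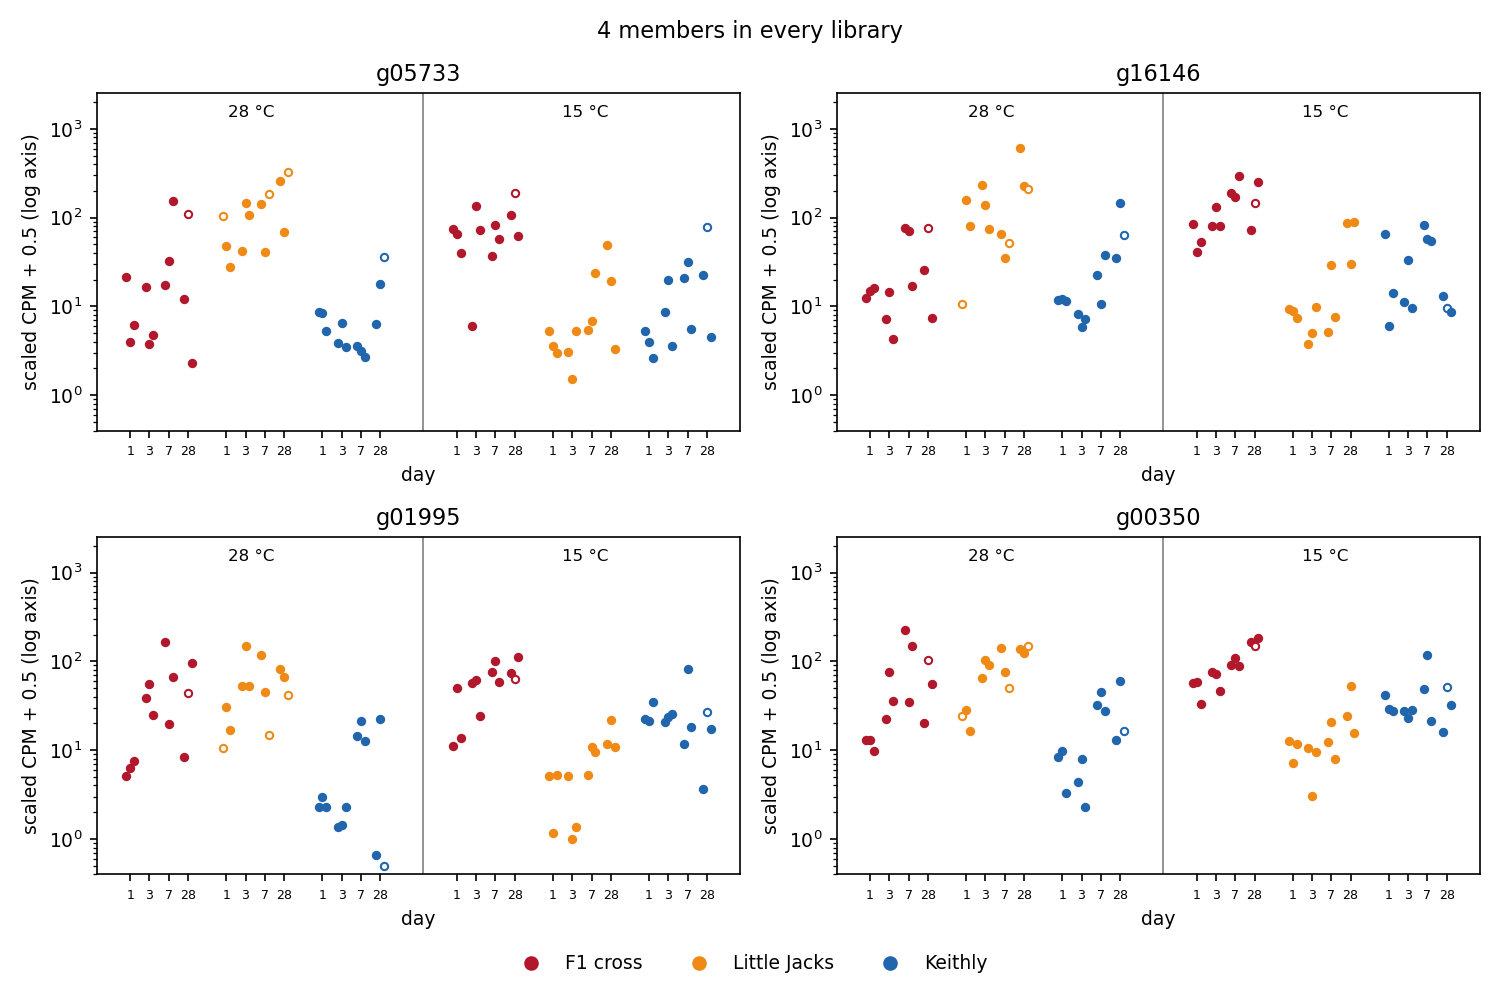
Scaled CPM + 0.5 (log axis) of members g05733, g16146, g01995 and g00350 in every library, by strain and day, at 28 °C (left of each panel) and 15 °C (right). Open points are the 7 libraries set apart. For g05733 the F1 libraries at 28 °C had a median of 13.9 scaled CPM, against 105.1 in Little Jacks and 5.30 in Keithly.

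The 1 member called below both parents at 28 °C had 5.41, 15.1 and 52.7 scaled CPM as lowest, median and highest value for the F1 cross, 17.6, 86.7 and 372.6 for Little Jacks and 22.1, 64.3 and 317.1 for Keithly. The F1 difference was −2.12 from Little Jacks (log2, SE 0.31, adjusted p = 0.000342 by limma) and −1.88 from Keithly (SE 0.31, adjusted p = 0.00865), both averaged over days. On day 28 the libraries read 33.2, 52.7 and 14.1 for the F1 cross, 28.1, 37.5 and 17.6 for Little Jacks and 72.6, 88.2 and 57.8 for Keithly, so that on that day the F1 cross overlapped Little Jacks. Its parental levels did not differ beyond their spread, with 0.25 for Little Jacks minus Keithly (adjusted p = 0.736). At 15 °C the same member had 178.7, 243.1 and 543.9 for the F1 cross, 16.0, 58.0 and 710.7 for Little Jacks and 5.02, 35.1 and 663.2 for Keithly. On day 28 at 15 °C, all 3 Keithly libraries (450.4 to 663.2) lay above all 3 F1 libraries (184.6 to 293.2), so this member was raised above Keithly in the average over days and not on that day.

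By identifier type, which the rule did not use, 212 were numbered gene-type features and 4 were singletons, 98.1% and 1.85%, compared with 98.4% and 1.57% of the 16763 features. Their mean scaled CPM ran from 5.11 to 2842 with a median of 18.8, compared with a median of 15.8 over the 16763. Over the 12 group means at 28 °C, the correlation of a member with the median course of the others had a median of 0.70 and was above 0 for 208 of 216, as a description over groups that share strain and day. Within groups at 28 °C, pairs of members correlated with a median r of 0.11 over 36 libraries, compared with 0.01 for all features, and 0.09 compared with 0.00 over 31 libraries without those set apart. The first principal component of the members' within-group residuals held 49.2% of their variance over the 36 libraries and 17.5% over the 31. Neither this share nor the correlation with the median course was computed for all features at 28 °C.

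By the member level, each library set apart lay above both of its group mates, except Little Jacks at 28 °C on day 1. That library read 3.84, against 4.31 and 3.91 in its group mates. By the median difference over single members, the libraries set apart did not share a direction. Compared with the mean of their group mates, members in them differed by a median of 0.49 for the F1 cross (28 °C, day 28), 0.40 for Little Jacks (28 °C, day 7) and 0.64 for Keithly (15 °C, day 28) on the log2 scale. It was −0.32 for the F1 cross (15 °C, day 28), −0.71 and −0.25 for Little Jacks (28 °C, days 1 and 28) and −0.07 for Keithly (28 °C, day 28). Over the 16763 features the medians were 0.004, −0.13, 0.09, −0.13, −0.13, −0.22 and −0.06, in the order given. For Little Jacks and Keithly at 28 °C on day 28, the members were thus close to all these features. Chosen without the libraries set apart, the rule gave 206 members, of which 188 were among the 216. Chosen without the libraries under 1 M reads, it gave 215 members, of which 187 were among the 216.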

How the data were processed

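Gill RNA of 72 libraries was sequenced. The tools named in the submitters' processing notes are CASAVA 1.8, Bowtie and edgeR; the reference transcriptome and the filters were not given in the sources used here. Values deposited by the authors are a signal per feature, normalised within 1 table per strain and called CPM in the descriptions, with column sums of 0.819 to 1.77 M. The authors' library table holds counts of reads and of matched reads (M) and a matched percent; it states that each library pools 3 fish samples of 1 tank. Columns were tied to groups through their names, also where the descriptions of 1 group (F1 cross, 28 °C, day 1) name another table.

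Whole reads were recovered by dividing each column by its smallest step, and 100% of values came out whole within 0.01. A floor of 3 reads corresponds to 0.132 to 9.24 deposited units, covering counting error only. Reads of the 23234 shared features were joined and scaled with TMM (edgeR 4.0.16), because the tables were normalised separately. Strains at 28 °C were compared with limma 3.58.1 (R 4.3.3, trended prior, 1 mean per group, two-sided) on log2(scaled CPM + 0.5). Day 28 was compared with day 1 on the authors' log2(value + 0.5) within a table. Features needed 10 reads in 3 libraries, which removed none of the shared features from the comparisons of strains. The threshold is a Benjamini-Hochberg adjusted p of 0.05. Alternatives were other scalings (DESeq2 1.42.0 size factors among them), tests, pseudocounts and libraries. The limma test was run on simulated data for the F1 cross against each parental strain, averaged over days. It was also run so for day 28 against day 1 in the F1 cross. The other tests and comparisons were not run on simulated data. Figures were drawn with matplotlib 3.10.9.

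The members and lists were chosen with earlier results of these data known. Named members were the 2 highest called above both parents on all 4 days, of which there were 0, and the 2 lowest in the smaller F1 difference at 28 °C; the pair called above Keithly was added later. The list of cell type markers had 0 matched features. Taking the centring median over all 23234 features gave 223 members, including all 216.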

Additional observations from a re-analysis of the deposited data

How the results depend on the processing

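No member was called above both parents at 28 °C, averaged or on any day, under any of the scalings, tests, pseudocounts, filters and sets of libraries tried, single libraries left out included. In the main fit 0% of all features were called so, averaged and on each day, so the absence was not particular to the members. No paired analysis was possible because the replicate numbers in the columns match no sample label. The filter on reads changed nothing in the comparisons of strains at 28 °C, since it removed no shared feature there. In the comparisons of day 28 with day 1 it left 23949 of 24011 features for the F1 cross. It left 24299 of 24343 for Little Jacks and 24108 of 24174 for Keithly, with 214, 215 and 215 members tested in these strains.

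Main counts of features were 133 for the F1 cross against Little Jacks, 16 against Keithly and 338 for Little Jacks against Keithly. With all 72 libraries they were 215, 30 and 534. Higher in Little Jacks than in Keithly were then 260 features, 71 of them members, and 2 members were below both parents. With the column total they were 60, 10 and 141. Lower in the F1 cross than in Little Jacks were then 37 features, 26 of them members. Higher in Little Jacks than in Keithly were 63 features, 27 of them members. From day 1 to day 28, 90 members were called in the F1 cross. That scaling moved the median of all features by 0.12 for the F1 cross minus Little Jacks and by 0.49 for day 28 minus day 1 in the F1 cross. The authors' values with the median of each library set to 0 gave 7 features against Keithly and 28 members over time in Little Jacks. The main comparison over time used the authors' values without that centring. limma-voom gave 243 features against Little Jacks and 8 against Keithly. edgeR's quasi-likelihood test gave 66 members over time in the F1 cross. Without the libraries set apart, 336 and 67 features were called, with 91 members lower than Little Jacks and 4 below both parents. The cause of these moves was not tested. For members over time and below both parents, counts of all features called the same way under these alternatives are not given. A threshold of 0.6 gave 446 members and one of 1.0 gave 122.

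Leaving out 1 library at a time gave 88 to 214 features against Little Jacks (F1 day 7 replicate 3, F1 day 28 replicate 2), 4 to 24 against Keithly (F1 day 1 replicate 2, F1 day 28 replicate 2) and 207 to 397 for Little Jacks against Keithly (Keithly day 1 replicate 3, F1 day 28 replicate 1). It gave 38 to 76 members lower than Little Jacks, where 64 to 160 of all features were. Higher in Little Jacks than in Keithly were 34 to 60 members, where 106 to 202 of all features were. Below both parents were 1 to 3 members, and over time 23 to 47 members were called in Little Jacks. The counts of all features for these last ranges are not given. The F1 minus Keithly difference of g16146, 0.01, was −0.10 in limma-voom, −0.20 without the libraries set apart and −0.19 to 0.23 with 1 library left out. The parental difference of the member below both parents ranged from −0.0116 to 0.42. Member g01995 had 1 read and 0 reads in Keithly replicates 1 and 3 at 28 °C on day 28. These libraries held 5.62 and 3.52 M reads in all. Replicate 2 of that group held 6.69 M reads, 150 of them from g01995. Whether depth played a part was not tested.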
